A study of Mus musculus with 4 samples.

Results

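The cells described are arteriolar and arterial capillary endothelial cells (ECs) of the mouse left ventricle, 2283 of 35516 ECs in 4 single-cell RNA libraries. They were chosen by their own transcripts. A cell needed at least 3 UMIs (unique molecular identifiers, 1 per captured transcript) summed over Pecam1, Cdh5, Kdr, Tie1, Egfl7 and Cldn5, and at least 3 summed over Hey1, Sema3g, Alox12, Cox4i2 and Unc5b. It was allowed no UMI of the conduit artery genes Gja5, Fbln5 and Bmx, of the venous selectins Selp and Sele, or of the endocardial and lymphatic genes Npr3, Prox1 and Mmrn1, and at most 1 of the mural genes Kcnj8, Abcc9, Vtn and Pdgfrb. "Arteriolar ECs" below means these cells and "other ECs" the remaining 33233, which include 1412 conduit artery ECs (at least 3 UMIs of Gja5, Fbln5 and Bmx) and 8258 capillary ECs (at least 3 UMIs of Car4 and Timp4, none of the conduit or arteriolar genes).

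The study was about loss of endothelial SR-B1, the lipoprotein receptor encoded by Scarb1, in a mouse model of HFpEF, heart failure in which the ejection fraction is preserved. It describes its single-cell data as from mice with 1 or 2 floxed Scarb1 alleles (S fl/+ and S fl/fl) on either diet. The labels give the diet alone, so only the diets are compared here. The 2 libraries of a diet may therefore differ in Scarb1 genotype and may not be plain replicates. The NC group (2 libraries, labelled Chow diet) took 10% of energy from fat without L-NAME, and the HFpEF group (2 libraries, labelled HFD plus L-NAME) took 60% of energy from fat with 0.5 mg/ml L-NAME, a nitric oxide synthase inhibitor that raises blood pressure. The lineage-traced mice of the study carried Cdh5-CreER, a tamoxifen-inducible Cre driven by the endothelial cadherin promoter. They also carried a Rosa26-stop-tdTomato reporter and the floxed Scarb1 made in C57BL/6N mice, and received tamoxifen. An age of 7 weeks at tamoxifen is stated for S fl/fl and endothelial knockout mice, and not separately for the lineage-traced mice. The regimen of lineage-traced mice lasted 20 weeks. The age at collection, the number of mice per library and which Scarb1 genotype each library had were not given in the sources used here. Red fluorescent left ventricular cells were sorted, which selects cells in which the Cdh5 promoter had been active.

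An artery narrows through arterioles into arterial capillaries before blood reaches the exchange capillaries. Notch signalling, in which the ligands Dll4 and Jag1 activate Notch1 and Notch4 and induce Hey and Hes repressors, keeps endothelium arterial, while Nr2f2 favours venous identity. Arterioles set resistance to flow and conduct dilator signals, and in the heart they feed a capillary bed that takes up fatty acids for the cardiomyocytes.

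The NC libraries held 741 and 564 arteriolar ECs (NC 1 and NC 2) and the HFpEF libraries 156 and 822 (HFpEF 1 and HFpEF 2), and all values below follow this order. Their summed UMIs were 3589190, 3080291, 423268 and 3483630, so HFpEF 1 was by far the shallowest sum. The median arteriolar EC held 4183, 4670, 2372.5 and 3352.5 UMIs, against 3752, 4060, 1784 and 1698 in other ECs. Without the conduit artery condition 1272, 1144, 323 and 1560 cells would have met the rule. The cells that this condition removed are counted among other ECs. Libraries shared between 10 and 42 cell barcodes per pair.

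The marker genes behaved unevenly in the chosen cells. Hey1, a Notch-induced repressor on chromosome 3 (8663359 to 8667038, mm10), had at least 1 UMI in 69.8, 65.2, 60.9 and 69.7% of arteriolar ECs, against 16.9, 15.4, 8.46 and 12.2% of other ECs at the median depths above. Unc5b, a netrin receptor that restrains vessel branching (chromosome 10, 60762594 to 60831581), was found in 74.6, 76.6, 60.9 and 64.4%. Sema3g, an arterial semaphorin (chromosome 14, 31217873 to 31230352), was found in 54.5, 45.04, 48.1 and 48.9%. These 3 genes were the most often detected of the 5. At 1500 UMIs per cell Hey1 was found in 39.97, 29.6, 46.9 and 42.2% of the same cells, with 728, 558, 130 and 730 cells deep enough, and HFpEF 1 went from the lowest share to the highest. Alox12, the arachidonate 12-lipoxygenase gene (chromosome 11, 70241457 to 70255380), was found in 21.7, 34.0, 25.6 and 26.8% of the cells. Cox4i2, an alternative subunit of cytochrome c oxidase (chromosome 2, 152753916 to 152765039), was found in 22.4, 29.1, 26.3 and 28.2%.

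A single marker gene supplied all marker UMIs in 11.6, 12.1, 19.2 and 13.9% of the cells, and 2 genes did so in 45.9, 41.3, 44.2 and 41.7%. All 5 were seen together in 11, 10, 0 and 3 cells. Many cells sat near the threshold. Those with exactly 3 marker UMIs numbered 292, 234, 101 and 410, and 510, 414, 203 and 979 cells that met every other condition stopped at 2. The cells just inside held a median of 4125, 4433, 2147 and 2894.5 UMIs and those just outside 3759.5, 4197, 2074 and 2246.

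Arteriolar ECs took a larger share of the ECs in NC than in HFpEF. In NC 1 they were 11.2% of ECs, with a 95% exact binomial interval from 10.4 to 11.97%. The share was 9.21% in NC 2 (8.50 to 9.97), 3.27% in HFpEF 1 (2.79 to 3.82) and 4.57% in HFpEF 2 (4.27 to 4.88). The NC shares were higher by a ratio of geometric means of 2.63. The rule counts UMIs and HFpEF cells held fewer of them, so each EC was also thinned to 1500 UMIs, which left out shallower cells and kept 5909, 5665, 3009 and 10328 of 6626, 6121, 4766 and 18003 ECs, so more were left out in HFpEF. The shares were then 3.91% (3.43 to 4.44), 2.86% (2.44 to 3.33), 1.96% (1.496 to 2.52) and 2.56% (2.26 to 2.88), a ratio of 1.49, and the interval of NC 2 overlapped those of both HFpEF libraries. With 2 libraries per diet no permutation test of the shares could pass 0.05, and the intervals cover counting error only.

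**Figure D1:**
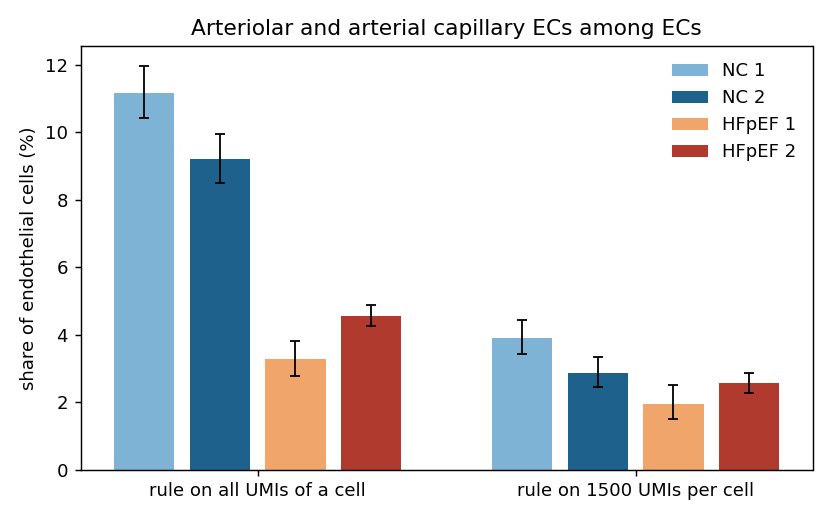
Share of arteriolar ECs among ECs (percent, y axis) in each of the 4 libraries, with all UMIs and after thinning each cell to 1500 UMIs; bars start at 0 and error bars are 95% exact binomial intervals. The NC shares of 11.2 and 9.21% against 3.27 and 4.57% in HFpEF drew together to 3.91 and 2.86% against 1.96 and 2.56% among ECs thinned to equal UMIs per cell.

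Levels were compared between cell classes within each library, in CPM (the UMIs of a gene per 1000000 UMIs summed over the class) and as log2 ratios with 1 CPM added. The choice used the transcripts of the same cells, so these ratios are descriptions with no test. Of 6020 genes outside the rule with at least 20 CPM in either class, 1194 (19.8%) were higher in arteriolar ECs than in other ECs in 4 of 4 libraries and 714 (11.9%) were lower. The median log2 ratio over all of them was 0.03.

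The arterial identity genes that the rule did not use were mostly higher. Of 18 at sufficient level, 12 were higher in 4 of 4 libraries and 2 lower, with a median log2 ratio of 0.36. Against conduit artery ECs the order was the opposite, with 4 of 19 higher and 12 lower in 4 of 4 libraries and a median of −0.61, where 17.1% of 6230 genes were higher and 25% lower. Efnb2, the ligand that marks arterial against venous endothelium, stood at 393, 399, 473 and 391.8 CPM, against 228, 233, 249 and 242 in other ECs (log2 ratio 0.79 ± 0.10, SD, n = 4). Cxcl12, a chemokine, and its receptor Cxcr4 were both higher, by 0.56 ± 0.09 and 1.08 ± 0.33. Rbp7, a retinol-binding protein of microvascular endothelium, stood at 2934, 2414, 3308 and 1752 CPM against 1624, 1296, 1497 and 1075 (0.90 ± 0.18). Sox17, a transcription factor required for arterial fate, was higher by 0.27 ± 0.09.

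Among 12 Notch pathway genes, 4 were higher in 4 of 4 libraries and 1 lower, with a median log2 ratio of 0.04, close to that of all genes. Against conduit artery ECs 1 was higher and 6 lower, with a median of −0.24. Those higher than in other ECs included the receptors Notch1 (383, 335, 357 and 344 CPM against 276, 235, 225 and 246, 0.53 ± 0.09) and Notch4 (0.30 ± 0.08) and the ligand Dll4 (0.41 ± 0.13). Another ligand, Dll1, was lower in 4 of 4 libraries (−0.74 ± 0.21). Heyl, a further Notch-induced repressor, averaged 8.80 CPM against 2.35, with a log2 ratio of 1.51 ± 0.37. It had 28, 23, 6 and 20 UMIs in arteriolar ECs. Hes1, which is also a target but is used by most endothelium, was level with other ECs (−0.02 ± 0.05) and above conduit artery ECs (0.33 ± 0.09), and Jag1 averaged 50.8 CPM against 59.0 (−0.22 ± 0.24).

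Esm1, the secreted proteoglycan endocan on chromosome 13 (113209659 to 113218104), had the highest ratio of the genes outside the rule with at least 20 CPM and 1 direction in 4 of 4 libraries. It stood at 27.6, 35.7, 40.2 and 28.1 CPM in arteriolar ECs against 6.2, 8.62, 10.6 and 10.6 in other ECs (1.77 ± 0.30), and averaged 7.44 CPM in conduit artery ECs and 2.36 in capillary ECs. All 4 arteriolar values lay above every value of the other classes. Btnl9, a butyrophilin-like membrane protein, stood at 928, 999, 1047 and 1173 CPM, with class means of 526 in other ECs, 736 in conduit artery ECs and 368 in capillary ECs. Pth1r, the parathyroid hormone receptor, was likewise higher than in other ECs (0.93 ± 0.15), conduit artery ECs (1.51 ± 0.62) and capillary ECs (1.36 ± 0.29). Scgb3a1 (1.18 ± 0.38), Cpm (1.00 ± 0.22), Igfbp3 (0.94 ± 0.33), St8sia6 (0.94 ± 0.37), Fads3 (0.87 ± 0.10), Tgfb2 (0.85 ± 0.76) and Stc1 (0.83 ± 0.27) completed the highest ratios to other ECs. Against conduit artery ECs these genes did not stand higher. St8sia6 (−1.15 ± 0.36), Fads3 (−1.28 ± 0.19), Tgfb2 (−1.57 ± 0.90) and Stc1 (−0.91 ± 0.37) were lower in arteriolar ECs in 4 of 4 libraries, and Scgb3a1, Cpm and Igfbp3 did not keep 1 direction.

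Arteriolar ECs held no UMI of Gja5, Fbln5 and Bmx and conduit artery ECs at least 3. Lower levels of related genes in arteriolar ECs follow in part from this choice. Conduit artery genes outside the rule were mostly lower in arteriolar than in conduit artery ECs. Of 9 at sufficient level, 8 were lower in arteriolar than in conduit artery ECs in 4 of 4 libraries, where 25% of 6230 genes were, with a median log2 ratio of −2.82. Mgp, an inhibitor of vessel calcification, averaged 39.2 CPM in arteriolar and 1286 in conduit artery ECs. Cytl1, a secreted cytokine-like protein, averaged 0.294 CPM against 110.4. Some arterial genes were intermediate, below conduit artery ECs and above capillary ECs. Gja4, the gap junction protein connexin 37, averaged 24.1 CPM in arteriolar, 231 in conduit artery and 1.46 in capillary ECs. Vegfc, Stmn2, Edn1 and Glul had the same order of means, as did Clu, with 30.6, 564 and 6.05 CPM. The gap junction gene Gja1 went against its list, with 383 CPM in arteriolar and 297 in conduit artery ECs (0.37 ± 0.13).

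Capillary genes had a median close to the level of other ECs. Of 14, 5 were higher and 4 lower in 4 of 4 libraries, with a median of 0.01. Fabp4 and Cd36, which carry and take up fatty acids, averaged 27895 and 5387 CPM in arteriolar ECs against 27436 and 4899.7. Gpihbp1, which anchors lipoprotein lipase to capillary endothelium, averaged 2193 against 2152. Of the lower genes Timp4 had a log2 ratio of −0.48 ± 0.07, and Aqp1, the water channel, went lower still with 597, 550.3, 239 and 370.0 CPM against 1896, 1933, 1427 and 1072 (−1.90 ± 0.47). The fatty acid genes were at the same time above the conduit artery ECs, by 0.55 ± 0.11 for Cd36, 0.79 ± 0.14 for Fabp4 and 1.91 ± 0.19 for Lpl, which encodes lipoprotein lipase. Of the 14 capillary genes 12 were higher and 1 lower than in conduit artery ECs in 4 of 4 libraries (median 0.83). Against capillary ECs, chosen by Car4 and Timp4, 4 were higher and 9 lower (median −0.16).

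Venous genes were lower than in other ECs. Of 8, 7 were below other ECs in 4 of 4 libraries and none above, with a median log2 ratio of −1.17. Against conduit artery ECs 3 of 6 were higher and 2 lower, with a median of 0.51, and Aplnr was higher by 2.34 ± 0.56. Vwf, the clotting adhesion protein, stood at 10.0, 15.6, 2.36 and 13.2 CPM against 91.3, 91.9, 30.3 and 61.4 (−2.73 ± 0.50). Nr2f2, which specifies veins, averaged 19.9 CPM against 41.4 (−1.11 ± 0.63), and Aplnr, the apelin receptor, 31.9 against 75.5 (−1.24 ± 0.14). Cells with a conduit artery, vein or lymphatic UMI of the rule were left out of the arteriolar ECs only. Among the lowest ratios to other ECs were those of the lymphatic chemokine Ccl21a (−6.56 ± 0.78), the conduit artery gene Cytl1 (−4.30 ± 0.63) and venous Lrg1 (−2.83 ± 0.68), and further down Samd5, Prss23, Vwf, Igkc, Mgp, Cpe, H2-Eb1 and Igfbp5. Igkc, an immunoglobulin chain of B cells, owed its mean of 91.1 CPM in other ECs to NC 2 with 336 CPM.

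Basement membrane genes were more often higher than genes at large, by small ratios. Of 14 basement membrane genes 7 were higher than in other ECs in 4 of 4 libraries and none lower (median 0.19), among them Sparc by 0.27 ± 0.05, Col4a1 by 0.18 ± 0.08 and Lamb1 by 0.27 ± 0.08. Against conduit artery ECs 10 of the 14 were higher and 3 lower, with a median of 0.81. Of 20 TGF-beta and BMP genes 10 were higher and 5 lower (median 0.13). Smad6, an inhibitor of BMP signalling that endothelium induces under flow, was higher by 0.70 ± 0.12, Smad7 by 0.39 ± 0.09 and the co-receptor Eng by 0.29 ± 0.05. Of 20 vasomotor genes 10 were lower and 3 higher (median −0.12), and the nitric oxide synthase Nos3 averaged 119 CPM against 124 (−0.05 ± 0.15). Of 16 NF-kB targets, chemokines and adhesion genes 8 were lower and 2 higher (median −0.22), with the leukocyte receptor Vcam1 at 25.6 CPM against 72.1 (−1.53 ± 0.62). Other ECs kept the cells with a Selp or Sele UMI, which the rule took from arteriolar ECs, so this is partly built in. Capillary and conduit artery ECs also lacked such cells. Against capillary ECs 3 of 15 were higher and 6 lower (median −0.13). Against conduit artery ECs 0 of 16 were higher and 8 lower (median −0.46).

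**Figure D2:**
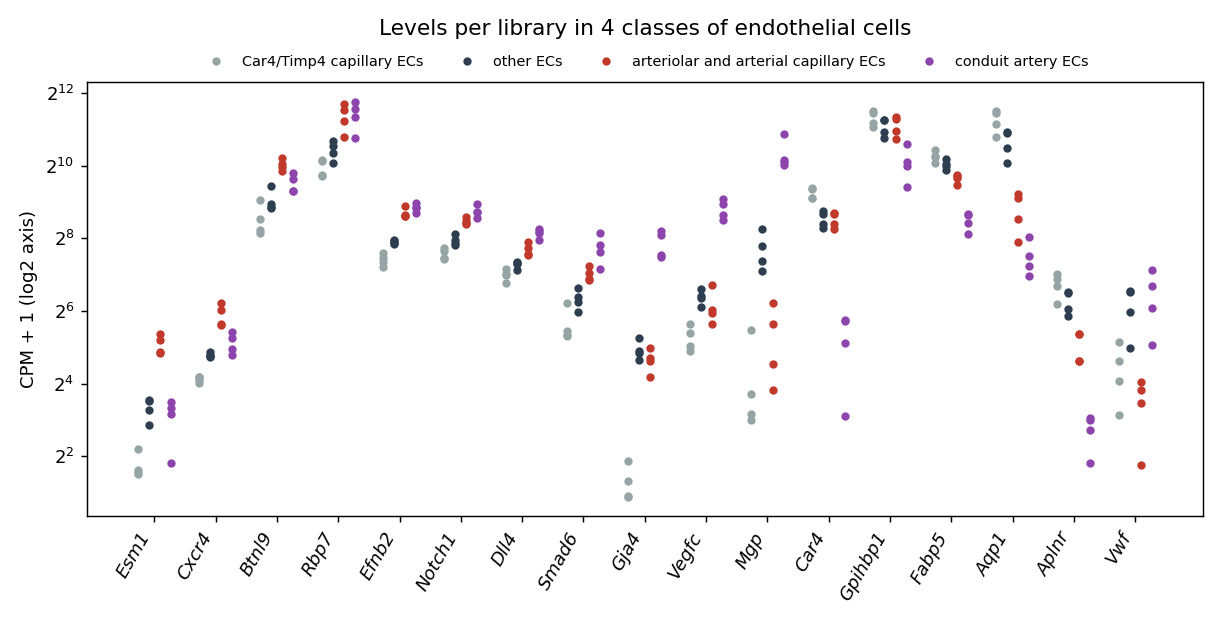
CPM + 1 (log axis) of 17 genes in arteriolar, other, conduit artery and capillary ECs, each point 1 of the 4 libraries. Esm1 sits at 27.6 to 40.2 CPM in arteriolar ECs above every other class, Gja4 and Mgp are highest in conduit artery ECs, and Aqp1 is lower in arteriolar than in capillary ECs.

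The levels also varied with the number of marker UMIs a cell held, without a step at the threshold of 3. Over cells with 0, 1, 2, 3, 4 and 5 or more marker UMIs that met the other conditions, Esm1 averaged 5.595, 12.7, 19.9, 26.1, 33.6 and 41.8 CPM over the 4 libraries. Tgfb2 averaged 4.01, 10.3, 20.1, 29.6, 41.2 and 55.5 CPM, and Aqp1 went the other way with 2147, 1277, 853, 562, 432 and 309. Btnl9, Rbp7, Igfbp3, Smad6, Efnb2, Cxcr4, Dll4, Notch4 and Heyl were higher at 5 or more than at 0 in 4 of 4 libraries. Car4, Timp4, Gpihbp1, Vwf, Nr2f2 and Aplnr were lower in 4 of 4. Cells with more marker UMIs are also deeper, and the part of depth in this order was not tested.

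**Figure D3:**
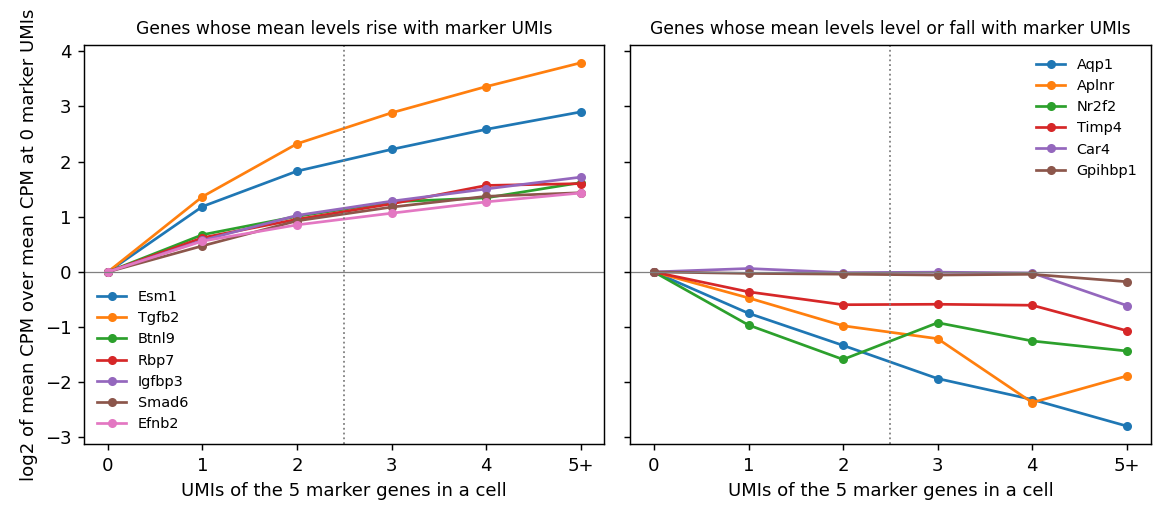
Log2 of the mean CPM in cells with 0 to 5 or more marker UMIs over the mean CPM in cells with 0 (y axis), for genes that were higher (left) and lower (right) with more markers; the dotted line marks the threshold of 3. Esm1 goes from 5.595 to 41.8 CPM and Aqp1 from 2147 to 309 CPM across the range.

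Other genes varied with the marker that brought a cell in. Log2 ratios between arteriolar ECs with and without a UMI of 1 marker were taken in each library. Cells with Alox12 had less Aqp1 (−1.31 ± 0.51), Timp4 (−0.81 ± 0.33) and Nr2f2 (−0.86 ± 0.14) and more Stmn2 (0.61 ± 0.10), a microtubule regulator of arterial ECs. Cells with Sema3g likewise had less Aqp1 (−0.83 ± 0.76) and Nr2f2 (−0.52 ± 0.47) and more Stmn2 (0.69 ± 0.23). Vegfc, a growth factor for lymphatic vessels, was higher in 4 of 4 libraries with Sema3g (0.71 ± 0.22), Alox12 (0.80 ± 0.54) and Cox4i2 (1.22 ± 0.34). Cells with Unc5b had less Stmn2 (−0.53 ± 0.25), Rbp7 (−0.26 ± 0.21) and Smad6 (−0.20 ± 0.15) and more Aplnr (0.63 ± 0.44) in 4 of 4 libraries. They also had more Notch4 (0.15 ± 0.11) and Car4 (0.06 ± 0.05) and less Timp4 (−0.31 ± 0.15) in 4 of 4. Cells with Cox4i2 stood apart by mural transcripts. They had more Rgs5 (2.15 ± 0.82), a G protein regulator of pericytes, and more Acta2 (4.33 ± 2.38), the smooth muscle actin, in 4 of 4 libraries, although cells with over 1 UMI of the 4 mural rule genes had been left out.

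Markers of other cell types were present and were not even between libraries. The 9 mural genes summed to 328, 378, 725 and 458 CPM, of which Rgs5 gave 301, 331, 524 and 332, and Cnn1 was at 0 in all libraries and Cspg4 in NC 1. The 9 fibroblast genes summed to 13.4, 17.9, 506 and 58.0 CPM, led by Pdgfra in NC and by Gsn in HFpEF. Postn and Tcf21 were at 0 in NC 1, NC 2 and HFpEF 1. The fibroblast sum was thus far higher in HFpEF 1 than elsewhere. The 10 cardiomyocyte genes summed to 126, 81.2, 404 and 111 CPM, led by Myl2, with Nppa at 0 in 3 libraries. The 12 leukocyte genes summed to 13.1, 12.7, 23.6 and 41.9 CPM, with Fcer1g, Cd79a, Lyz2 and Lyz2 the most abundant and Cd3e and Cd3g at 0 throughout. The 6 proliferation genes summed to 54.1, 3.25, 21.3 and 89.8 CPM, led by Mki67, Top2a, Mki67 and Ube2c. The 8 endocardial and lymphatic genes summed to 151, 114, 149 and 139 CPM, with Flt4 the most abundant and Lyve1 and Pdpn at 0 throughout.

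HFpEF was then compared with NC within arteriolar ECs by edgeR's quasi-likelihood test on the UMIs summed per library. Of 10190 genes tested, 56 (0.55%) passed an adjusted p of 0.05, of which 44 (0.432%) were higher and 12 (0.118%) lower in HFpEF. DESeq2 called 23. The p-values measure the spread between 2 libraries per diet, which may be technical and may include a difference in Scarb1 genotype. The libraries of a diet differed in depth, and after thinning each cell to 1500 UMIs before applying the rule 12 genes were called, 9 of them among the 56.

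Cyp1a1, an aryl hydrocarbon receptor target that oxidises aromatic compounds and arachidonic acid (chromosome 9, 57687928 to 57703824), was nearly lost. It had 165, 165, 1 and 1 UMIs, or 46.0, 53.6, 2.36 and 0.287 CPM. The HFpEF values were each below both NC values by over an order of magnitude. The NC to HFpEF ratio of pooled CPM was 96.7, with a 95% counting interval of 26.5 to 801 that covers counting error only (log2 fold change −6.49 ± 0.46, SE, adjusted p = 3.33e-06). With 1 UMI in each HFpEF library the size is uncertain, and the log2 fold change was −4.37 without HFpEF 2 and −7.30 without HFpEF 1. It passed in all 16 alternative settings, of which 4 leave a diet with a single library that is assumed to vary like the other diet's pair. Other ECs also lost it, with a ratio of 22.2 (17.3 to 28.9), and the difference between the classes did not pass (interaction −2.20 ± 0.81, adjusted p = 0.555). Of the 5 aryl hydrocarbon receptor genes tested 1 was called, Cyp1a1, where 0.118% of all genes were called lower. At an unadjusted p under 0.05, 2 of the 5 were lower and 0 higher (4.92% and 5.74% of all genes). The receptor gene Ahr had a log2 fold change of 0.21.

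The 250 bases before the RefSeq start of Cyp1a1, which lies inside the longer gene span given above, are shown because the receptor binds a short core, GCGTG, which stands in capitals (RefSeq, GRCm38.p6, chr9:57697363-57697612, plus strand).
Cyp1a1: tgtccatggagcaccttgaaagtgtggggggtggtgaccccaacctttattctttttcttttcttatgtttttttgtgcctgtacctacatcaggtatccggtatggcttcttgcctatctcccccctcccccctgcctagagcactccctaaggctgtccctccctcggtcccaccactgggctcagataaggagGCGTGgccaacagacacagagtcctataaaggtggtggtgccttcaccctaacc
The core occurred once in this stretch. It is a common motif, searched on both strands, and 32.4% of 32851 RefSeq promoters (250 bases before to 50 after the start) held it. The Notch effector motif GTGGGAA, held by 6.38% of promoters, was not in this window of Sema3g, Alox12, Unc5b or Cyp1a1. A match describes the letters and not a bound site.

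Heat shock genes were the list with the most genes called higher. Of 11 tested, all had positive log2 fold changes, 5 were called higher (0.432% of all genes were) and 10 had an unadjusted p under 0.05, where 5.74% of all genes did so in this direction. Their median log2 fold change was 0.92, against 9.6e-05 over all genes. Hspa1a and Hspa1b encode the inducible HSP70 chaperone and are near-identical neighbours on chromosome 17, so the split of reads between them is uncertain. Hspa1a stood at 2687, 1418, 5675 and 6379 CPM (1.53 ± 0.22, adjusted p = 0.00551) and Hspa1b at 1957, 809, 4009 and 5168 CPM (1.71 ± 0.28, adjusted p = 0.00933). Both HFpEF libraries were above both NC libraries for each gene, as for 23.5% of 5871 genes at 20 CPM or more, and NC 2 was lowest.

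Hsph1, an HSP110 that recharges HSP70, had 67.1, 23.4, 132 and 208 CPM (1.96 ± 0.32, adjusted p = 0.00933). The mitochondrial co-chaperonin Hspe1 had 138, 107, 210.3 and 273 CPM (1.00 ± 0.17, adjusted p = 0.0103). Bag3, an HSP70 partner that clears damaged filament proteins, had 114, 108, 187 and 228 CPM (0.92 ± 0.15, adjusted p = 0.00933). No HFpEF value of these 3 genes fell to an NC value. Hspd1, the partner of Hspe1, missed the threshold with 101, 64.9, 128 and 177 CPM (0.92 ± 0.20, adjusted p = 0.0602), as did Hsp90aa1 (0.76 ± 0.20, adjusted p = 0.132). DESeq2 called 2 of the 11 and not Hspa1a, Hspa1b or Hsph1. In other ECs the list's median was 0.77 and none of its 11 genes was called, and none differed between the classes in the interaction test.

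Promoter stretches of 4 of the 5 called heat shock genes are printed because the heat shock factor binds inverted GAA units. Capitals mark GAANNTTC and TTCNNGAA, which read alike on both strands and can overlap.
Hspa1a, chr17:34972157-34972406, minus strand: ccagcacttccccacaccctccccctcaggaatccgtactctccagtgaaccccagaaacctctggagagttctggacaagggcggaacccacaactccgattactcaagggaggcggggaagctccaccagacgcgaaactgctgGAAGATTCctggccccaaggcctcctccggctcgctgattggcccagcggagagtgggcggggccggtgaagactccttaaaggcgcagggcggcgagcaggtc
Hspa1b, chr17:34959239-34959488, minus strand: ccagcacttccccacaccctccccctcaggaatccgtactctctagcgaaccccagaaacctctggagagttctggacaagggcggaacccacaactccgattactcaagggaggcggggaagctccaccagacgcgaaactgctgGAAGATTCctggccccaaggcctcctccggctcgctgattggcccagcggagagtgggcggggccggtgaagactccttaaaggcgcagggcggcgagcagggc
Hsph1, chr5:149636337-149636586, minus strand: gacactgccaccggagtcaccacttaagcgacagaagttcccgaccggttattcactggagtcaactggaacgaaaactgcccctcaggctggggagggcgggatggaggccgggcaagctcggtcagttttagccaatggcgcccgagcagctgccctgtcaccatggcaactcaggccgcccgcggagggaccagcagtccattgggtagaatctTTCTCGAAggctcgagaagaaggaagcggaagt
Hspe1, chr1:55087898-55088147, plus strand: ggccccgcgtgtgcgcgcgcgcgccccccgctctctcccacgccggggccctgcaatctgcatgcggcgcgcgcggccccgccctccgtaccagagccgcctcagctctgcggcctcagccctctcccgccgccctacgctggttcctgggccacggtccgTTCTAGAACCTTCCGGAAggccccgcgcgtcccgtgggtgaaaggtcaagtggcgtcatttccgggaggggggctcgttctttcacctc
Hspa1a and Hspa1b held the same GAAGATTC, Hsph1 held TTCTCGAA, and Hspe1 held 3 overlapping matches in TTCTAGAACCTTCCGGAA. Among all promoters 7.86% held GAANNTTC, 8.52% held TTCNNGAA and 15.1% held either. In the printed window, the 250 bases before the start, Bag3 and Dnajb1 held neither. Of 8 heat shock genes with a promoter entry, 7 (87.5%) held either once the 50 bases after the start were counted too, as they are for all promoters. The search was chosen after the values were seen. This share counts genes, for which any promoter entry sufficed, while the 15.1% counts promoters. The near-identical Hspa1a and Hspa1b are not separate cases, nor are Hspe1 and Hspd1, whose windows overlap.

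The 12 lower genes included 2 of the capillary list. Timp4, a matrix metalloproteinase inhibitor of cardiac capillaries, fell from 948 and 707 to 366 and 332 CPM (−1.28 ± 0.16, adjusted p = 0.00195) and kept its call in 15 of 16 alternatives, all but thinning (−0.92). Aqp1 fell from 597 and 550.3 to 239 and 370.0 CPM (−0.88 ± 0.17, adjusted p = 0.0238). Of 14 capillary genes these 2 were called and none was called higher, and 6 were lower and 0 higher at an unadjusted p under 0.05 (4.92% and 5.74% of all genes). DESeq2 also called 2. The list's median was −0.20, and 5 of its genes had positive fold changes.

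Thrsp, a regulator of fatty acid synthesis, was the 1 called gene of 25 for fatty acid uptake and oxidation, where 0.118% of all genes were called lower. At an unadjusted p under 0.05, 1 of the 25 was higher and 6 lower, against 5.74% and 4.92% of all genes. Thrsp had 251, 287, 99.2 and 144 CPM (−1.07 ± 0.16, adjusted p = 0.00627). Of the abundant fatty acid carriers neither was called, with Cd36 at 0.10 ± 0.13 and Fabp4 at −0.26 ± 0.14 (adjusted p = 0.845 and 0.558). Adh1, an alcohol and retinol dehydrogenase, had 46.8, 34.4, 14.2 and 12.6 CPM (−1.69 ± 0.26, adjusted p = 0.00627). Sult1a1, a phenol sulfotransferase, had 303, 305, 175 and 151 CPM (−0.96 ± 0.15, adjusted p = 0.00627). Both genes act on small lipophilic molecules, and both HFpEF values were below both NC values, as for 20.2% of 5871 genes.

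Fas, the death receptor, had 214, 168, 109 and 104 CPM (−0.88 ± 0.17, adjusted p = 0.022), and Spry1, an inhibitor of growth factor signalling, had 199, 206, 116 and 119 CPM (−0.81 ± 0.14, adjusted p = 0.0175). Ccdc28b (−0.98 ± 0.21) and Ypel3 (−0.70 ± 0.15) were called with adjusted p = 0.0435 each and kept the call in 6 and 4 of 16 alternatives. The adrenomedullin co-receptor Ramp2 fell from 928 and 867 to 609.5 and 566 CPM (−0.64 ± 0.13, adjusted p = 0.0435). Of 23 vasomotor genes it was the 1 called lower, and 2 were called higher, against 0.118% and 0.432% of all genes, with 4 higher and 2 lower at an unadjusted p under 0.05 (5.74% and 4.92% of all genes). The first of these, Ednrb, the endothelin B receptor, rose from 113 and 118 to 194 and 188 CPM (0.70 ± 0.14, adjusted p = 0.0409). The other, Gucy1a1, a guanylate cyclase subunit of smooth muscle and pericytes, had 0.836, 2.27, 28.4 and 9.47 CPM (3.11 ± 0.64, adjusted p = 0.043). Nos3 had 124, 120.1, 129.9 and 103 CPM (adjusted p = 0.785).

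Inflammatory genes were called singly. Of 34 interferon and antigen presentation genes 33 had positive fold changes (50% of all genes did), 16 had an unadjusted p under 0.05 in that direction (5.74% of all genes), and 1 was called, with a median of 0.39 against 0.55 in other ECs. DESeq2 called none of them. The called gene, the class II chain H2-Ab1, had 8.36, 9.74, 9.45 and 35.3 CPM (1.69 ± 0.33, adjusted p = 0.0313), so its HFpEF 1 value lay between the NC values. Irf1, a transcription factor of the interferon response, had 372, 513, 444 and 537 CPM (0.15 ± 0.16, adjusted p = 0.803). Of 16 NF-kB targets, chemokines and adhesion genes 2 were called, both higher, and DESeq2 called 1. At an unadjusted p under 0.05 edgeR gave 7 higher and 1 lower (5.74% and 4.92% of all genes). Il6, a cytokine, had 6, 4, 5 and 121 UMIs, or 1.67, 1.30, 11.8 and 34.7 CPM (4.23 ± 0.44, adjusted p = 0.000323), and Plaur, the urokinase receptor, had 61.9, 46.7, 82.7 and 115 CPM (0.92 ± 0.19, adjusted p = 0.0435).

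Few arterial genes were called. No gene of 16 in the Notch pathway was called, where edgeR gave an unadjusted p under 0.05 to 4 higher and 1 lower (5.74% and 4.92% of all genes) and DESeq2 called none, and Notch1, Dll4 and Efnb2 had fold changes of −0.06, −0.08 and 0.08. Of 18 arterial identity genes 1 was called higher (0.432% of all genes were), and DESeq2 called none of the list. It was Clu, a secreted chaperone, with 21.5, 14.3, 37.8 and 48.8 CPM (1.33 ± 0.23, adjusted p = 0.0163). At an unadjusted p under 0.05 the list had 1 gene higher and 0 lower. Esm1 (−0.08 ± 0.23) was not called. The marker genes of the rule have no test, and Hey1 stood at 325, 230.5, 428 and 322 CPM, Unc5b at 314, 284, 359 and 284, Sema3g at 201, 145, 281 and 175, Alox12 at 57.1, 95.8, 139 and 79.8 and Cox4i2 at 77.5, 89.0, 151 and 106. HFpEF 1 was highest for each. Its arteriolar ECs also held the fewest UMIs at the median, and the part of depth in these values was not tested.

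Lists of immediate early genes (14 tested), TGF-beta and BMP (21), VEGF, angiopoietin and apelin (16), basement membrane (14), vascular guidance (12) and venous genes (9) had no call by edgeR or DESeq2. At an unadjusted p under 0.05, which 10.7% of all genes reached, edgeR gave 1 higher and 1 lower, 1 and 2, 2 and 1, 1 and 1, 1 and 2, and 2 and 0. Of 9 shear-responsive genes 1 was called, where 0.432% of all genes were called higher. It was Thbs1, an inhibitor of angiogenesis, with 4, 2, 9 and 32 UMIs (1.11, 0.649, 21.3 and 9.19 CPM, 3.62 ± 0.64, adjusted p = 0.0174). At an unadjusted p under 0.05, 2 of the 9 were higher and 0 lower (5.74% and 4.92% of all genes). Of 10 potassium channel and electron transport genes 1 was called higher (0.432% of all genes were), and DESeq2 called none of that list. It was Ndufa4l2, a hypoxia-induced subunit-like protein also found in pericytes (9.47, 11.04, 37.8 and 24.1 CPM, 1.37 ± 0.29, adjusted p = 0.0435). In that list 3 genes were higher and 2 lower at an unadjusted p under 0.05, against 5.74% and 4.92% of all genes.

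Many of the highest fold changes belonged to genes of other cell types. Acta2 had 2.79, 7.47, 59.1 and 42.2 CPM (3.18 ± 0.34, adjusted p = 0.000323), and Tagln, a smooth muscle actin-binding protein, had 3.90, 11.4, 59.1 and 35.6 CPM (2.43 ± 0.37, adjusted p = 0.00627). With Myh11, the smooth muscle myosin (3.07 ± 0.57, adjusted p = 0.022), 3 of 8 mural genes tested were called higher, where 0.432% of all genes were. At an unadjusted p under 0.05, 5 of the 8 were higher and 0 lower (5.74% and 4.92% of all genes). Without Cox4i2 in the marker sum Acta2 and Tagln had fold changes of 1.54 and 1.11 and neither was called, and after thinning they had 0.00 and 0.36. The matrix proteoglycan Dcn had 1.67, 2.597, 191 and 14.9 CPM (4.87 ± 1.01, adjusted p = 0.0435) and Gsn, an actin-severing protein abundant in fibroblasts, had 3.06, 3.90, 250.4 and 20.7 CPM (4.62 ± 0.94, adjusted p = 0.0392). Of 4 leukocyte genes tested 1 was called higher (0.432% of all genes were), S100a9, a neutrophil protein, with 0, 0, 3 and 30 UMIs. In this list 2 genes were higher and 0 lower at an unadjusted p under 0.05, against 5.74% and 4.92% of all genes. HFpEF 1 was highest for Dcn and Gsn, and without it their fold changes were 2.76 and 2.53. After thinning Gsn was negative (−0.17). Acta2, Tagln and Myh11 are part of the mural sum and Dcn and Gsn of the fibroblast sum given above. The part of such cells or their free RNA in these fold changes was not tested. When cells with UMIs of other cell types were left out, which by construction removes Acta2, Tagln, Myh11 and Dcn, 31 genes were called, 29 of them among the 56.

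Mgp (13.1, 22.1, 73.2 and 48.5 CPM, 1.62 ± 0.26, adjusted p = 0.00933), the metal-binding Mt1 (11.7, 8.44, 33.1 and 29.3 CPM, 1.53 ± 0.27, adjusted p = 0.0158) and the interferon-induced Ifi27l2a (10.3, 11.04, 40.2 and 29.3 CPM, 1.54 ± 0.26, adjusted p = 0.0133) completed the higher genes named by size. Mgp was negative after thinning (−1.15), and Mt1 and Ifi27l2a kept the call in 8 of 16 alternatives each. Scarb1, the gene floxed in this cross, had 127, 47.1, 146 and 55.98 CPM (−0.14 ± 0.41, adjusted p = 0.953) and in other ECs 105, 44.8, 108 and 50.7. In both classes the first library of each diet was higher than the second.

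**Figure D4:**
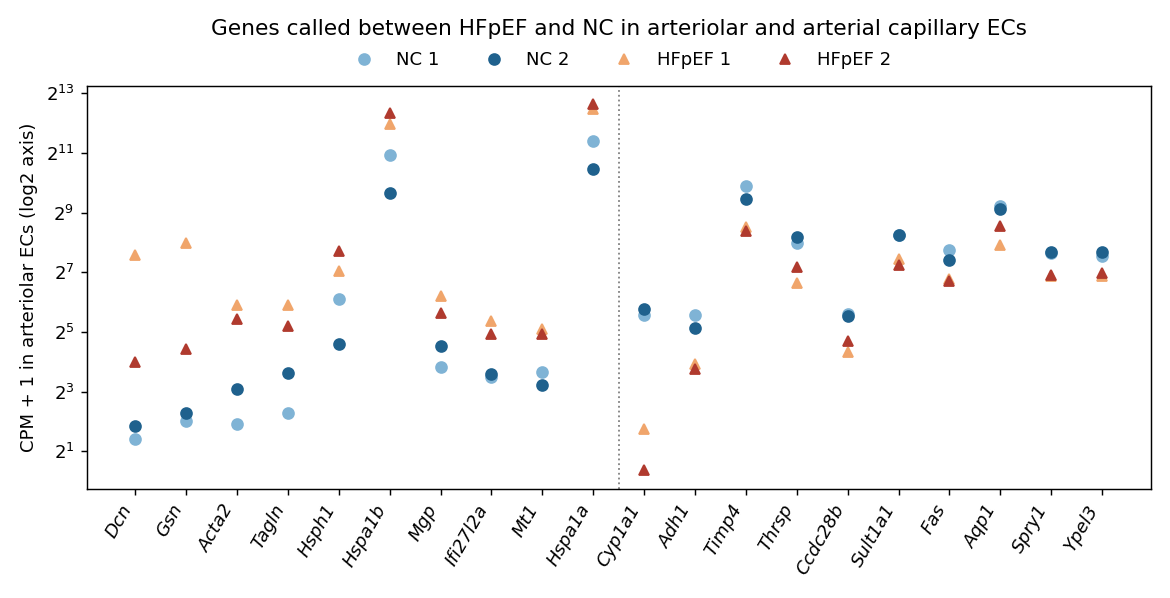
CPM + 1 (log axis) of 20 called genes in arteriolar ECs of the 2 NC and 2 HFpEF libraries, each point 1 library; a dotted line separates genes higher in HFpEF from genes lower. Cyp1a1 goes from 46.0 and 53.6 CPM to 2.36 and 0.287 CPM, and HFpEF 1 stands apart for Dcn (191 CPM) and Gsn (250.4 CPM).

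Whether HFpEF acted differently on arteriolar than on other ECs was tested as a cell class by diet term with the library kept in the model. Of 11627 genes, 42 (0.361%) passed, 33 (0.284%) with a more positive difference in arteriolar ECs and 9 (0.0774%) with a more negative one. Of the latter 4 are hemoglobin or mitochondrial genes, which the cell filter used, and they are not described as results. DESeq2 called 7 of these 42, and after thinning 2 genes were called, 1 of them among the 42. In other ECs alone edgeR called 1 of 13091 genes (0.00764%), Cyp1a1, with an unadjusted p under 0.05 for 2353 (18%), and the number of calls in each class is no test of a difference. Of the 56 genes called in arteriolar ECs, 17 also passed the interaction.

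No gene of the heat shock, capillary or fatty acid lists passed the interaction. Hspa1a rose by 1.53 ± 0.22 in arteriolar and had 1.46 ± 0.24 in other ECs, with an interaction of 0.09 ± 0.06, and Timp4 fell by 1.28 and had −1.18 ± 0.19, with an interaction of −0.06 ± 0.07. Adh1, Thrsp, Sult1a1, Fas, Aqp1, Spry1, Ccdc28b and Ypel3 had interactions between −0.10 and 0.02, none of which was called.

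Of the 42 genes 9 were on the lists of mural, fibroblast, leukocyte and proliferation genes. Dcn (4.64 ± 0.56, adjusted p = 2.95e-07), Acta2 (2.13 ± 0.30, adjusted p = 6.78e-06), Myh11 (2.74 ± 0.43, adjusted p = 9.08e-05) and Il6 (2.37 ± 0.38, adjusted p = 0.000157) were more positive in arteriolar ECs. Mgp rose in arteriolar ECs and had −0.77 ± 0.16 in other ECs (interaction 2.23 ± 0.19, adjusted p = 5.8e-12), but its arteriolar fold change after thinning was −1.15, the sign of other ECs. Mt1 had −0.53 ± 0.17 there (2.21 ± 0.22, adjusted p = 2.73e-09). Clu had −0.02 ± 0.12 in other ECs (1.29 ± 0.18, adjusted p = 6.78e-06). Other ECs include the conduit artery ECs, in which Mgp and Clu were highest.

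Among the other 5 genes with a more negative difference were 3 secreted signals. Pgf, placental growth factor, had 37.9, 56.2, 21.3 and 23.5 CPM in arteriolar ECs (−1.04 ± 0.24, adjusted p = 0.0726) and 0.06 ± 0.16 in other ECs (interaction −1.03 ± 0.23, adjusted p = 0.0199). Apln, the apelin ligand, had 13.4, 32.5, 4.73 and 21.2 CPM, with overlapping diets (interaction −1.31 ± 0.25, adjusted p = 0.00303). In HFpEF 1 these values rested on 9 UMIs of Pgf and 2 of Apln. The T cell chemokine Cxcl10 had 59.3, 94.1, 47.3 and 123 CPM in arteriolar ECs (0.37 ± 0.27, adjusted p = 0.67) and 76.2, 112, 168 and 202 CPM in other ECs (0.99 ± 0.18, adjusted p = 0.117), with an interaction of −0.57 ± 0.13 (adjusted p = 0.0322). Other ECs include cells with a Selp or Sele UMI, which the rule left out of arteriolar ECs. The part of these cells in the Cxcl10 difference was not tested. The Cxcl10 and Apln differences turned positive when the rule was applied after thinning (1.22 and 0.81). Leaving out 1 library gave −1.50 to −0.60 for Pgf, −2.73 to −0.79 for Apln and −1.63 to −0.46 for Cxcl10, each no longer called without NC 2, and Pgf also without HFpEF 2. In all 3 genes HFpEF 1 had the lowest value.

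**Figure D5:**
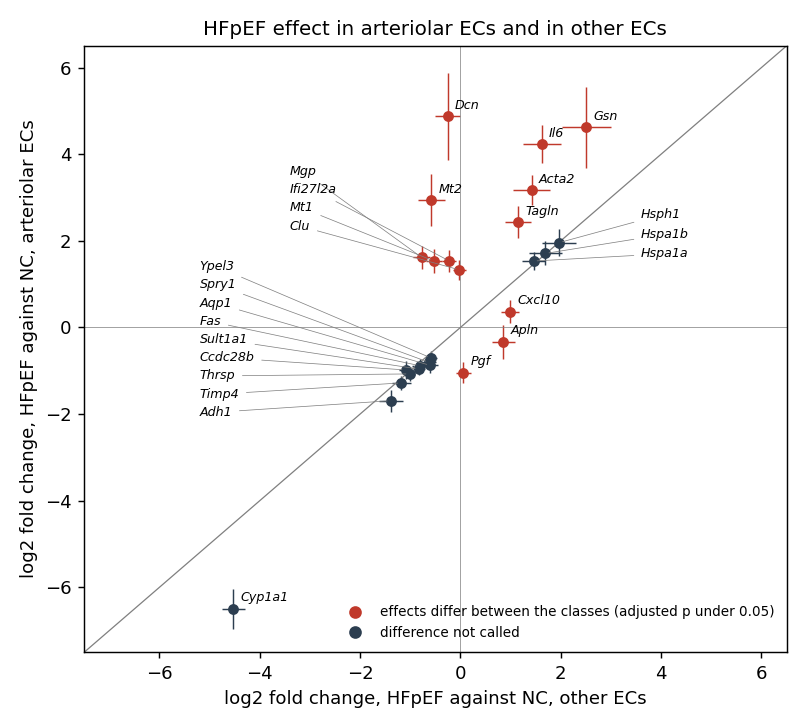
Log2 fold change of HFpEF against NC (with SE) in arteriolar ECs against that in other ECs, for the named genes, with the line of equal change; red marks an interaction with adjusted p under 0.05. Hspa1a and Timp4 lie near the line, and Dcn, Acta2, Mgp and Mt1 lie off it.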

How the data were processed

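Red fluorescent left ventricular ECs were profiled with the 10x Genomics 3′ v3 kit in 2 NC and 2 HFpEF libraries. Per the labels and the study's methods, the authors trimmed reads with fastp, aligned them to mm10 with Ensembl 100 genes in Cell Ranger 5.0.1, equalised reads per cell between libraries and deposited UMI counts for 31253 genes in 7465, 6924, 5769 and 21685 cells (30387717, 31517933, 11163876 and 48003732 UMIs). The deposited matrices still held cells outside the study's filter. Here cells with more than 200 genes, under 20% mitochondrial and under 1% hemoglobin UMIs were kept (7114, 6687, 5440 and 20588), of which 6626, 6121, 4766 and 18003 were ECs. No doublet caller was run. In its place the cells above the 95th percentile of UMIs in a library were left out as an alternative. All columns belonged to a labelled sample.

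The members and gene lists were chosen with earlier results of these data known. Counts were summed per library and class and tested with edgeR 4.0.16 in R 4.3.3 (TMM factors, filterByExpr, quasi-likelihood test, Benjamini-Hochberg adjustment over all genes tested, call at 0.05), with DESeq2 1.42.0 as an alternative. The 23 genes that chose the cells were left out of the counts of calls and given as values with no test. The hemoglobin and mitochondrial genes of the cell filter stayed in these counts, and their calls are not described. Class levels used Python 3.11.15 (pandas 2.3.3, numpy 2.4.6, scipy 1.17.1, matplotlib 3.10.9). Thinning to 1500 UMIs used seed 1. Genes were named by rule. These were the rule genes with Scarb1, Irf1 and Cxcl10, then up to 10 called genes per direction with at least 20 CPM and no overlap between diets, up to 10 per direction of the interaction, 12 per direction of the class ratio, and of each list its abundant and called members. Not every gene the rule allows was described, and 1 item is not reported here. S100a9 and the heat shock motif were chosen after their values were seen. Other alternatives changed the marker threshold (2 or 5 UMIs, or 2 genes), the depth window (2000 to 6000 UMIs), the conduit limit and the count filter. Those leaving out Cox4i2 or cells with UMIs of other cell types were added after seeing the data. The edgeR script was tested on simulated data. Promoters were taken from RefSeq, which had no entry used here for Hey1 and Cox4i2.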

Additional observations from a re-analysis of the deposited data

Results flagged for a closer look

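The 14 genes below had a diet effect that differed between arteriolar and other ECs in edgeR's interaction test (difference of log2 fold changes, with its adjusted p). H19 (12.34, adjusted p = 7.48e-14) had 0, 0, 0 and 82 UMIs in the arteriolar ECs of NC 1, NC 2, HFpEF 1 and HFpEF 2, Cybb (8.89, adjusted p = 0.042) 0, 0, 0 and 12, and Tgfbi (4.16, adjusted p = 0.0413) 2, 0, 0 and 14. Nearly all of these UMIs were in HFpEF 2, the size of the values depends on the count added to the zeros, and the Tgfbi value also moved without NC 1 (9.12). Dcn (4.64, adjusted p = 2.95e-07) and Myh11 (2.74, adjusted p = 9.08e-05) were highest in HFpEF 1, with 191 and 35.4 CPM. Lyz2 (4.13, adjusted p = 8.18e-07), Mt2 (3.77, adjusted p = 4.11e-06) and Ctsh (3.33, adjusted p = 0.0171) rested on 7 or fewer UMIs in each library but HFpEF 2, which had 38, 31 and 13. Per depth they were higher in both HFpEF libraries, with 0, 2.27, 9.45 and 10.9 CPM for Lyz2, 1.39, 0.649, 7.09 and 8.90 for Mt2 and 0.279, 0.974, 2.36 and 3.73 for Ctsh. Ube2c (2.77, adjusted p = 0.000232), a gene of dividing cells, had 45, 0, 1 and 81 UMIs, and its interaction was 11.52 without NC 1 and 0.12, not called, without HFpEF 2.

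Apln (−1.31, adjusted p = 0.00303), Pgf (−1.03, adjusted p = 0.0199), Cxcl10 (−0.57, adjusted p = 0.0322), Fscn1 (−0.39, adjusted p = 0.0482) and Iigp1 (−0.34, adjusted p = 0.0199) had the more negative differences. Cells with a Selp or Sele UMI were in other ECs only, and their part in these differences was not tested. Pgf was over 20 CPM in each library, on 9 UMIs in HFpEF 1. Its arteriolar values did not overlap between diets, but its diet effect there was not called (adjusted p = 0.0726).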

How the results depend on the processing

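The 56 genes called between diets in arteriolar ECs became 23 with DESeq2, 225 without the low-count filter, 24 at 2 or more marker UMIs, 25 at 5 or more, 30 at 2 or more marker genes, 12 when the rule followed thinning and 31 without cells holding UMIs of other cell types. Leaving out 1 library gave 33 (without NC 1) to 275 (without HFpEF 1) calls. The 42 interaction calls became 7 with DESeq2, 74 without the filter, 13 at 5 or more marker UMIs, 2 after thinning, 22 in the depth window, 18 without cells holding UMIs of other cell types and 70 without Cox4i2. Leaving out 1 library gave 30 (without NC 2) to 88 (without HFpEF 1), and 66 without HFpEF 2. The share ratio of 2.63 became 4.15 at 5 or more marker UMIs, 1.49 after thinning and 1.74 in the depth window. Leaving out 1 library gave 2.22 to 3.10, and for the 1194 genes above other ECs 1525 to 1689, since fewer libraries had to share a direction.

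Some gene values changed sign. After thinning these were the diet effects of Gsn (−0.17) and Mgp (−1.15) and the interactions of Apln (0.81), Ctsh (−0.039) and Cxcl10 (1.22). In the depth window they were Apln (0.43) and Lyz2 (−0.75), at 2 or more marker UMIs Lyz2 (−0.039), and at 5 or more Ctsh (−0.26). Leaving out 1 library gave interactions of −3.91 (without HFpEF 2) to 9.12 (without NC 1) for Tgfbi, and without the deepest cells Tgfbi was −3.31 and Ube2c −5.19. The cause was not tested. With 1 library left out, these called values also moved by over 1.5 times. Without HFpEF 2 the interaction of H19 was 2.47 and of Cybb 1.95. Without NC 2 Lyz2 was 9.94, Myh11 4.57 and Iigp1 −0.21. Iigp1 was −0.57 without HFpEF 2. The diet effect of Dcn was 2.76 and of Gsn 2.53 without HFpEF 1, and that of Hsph1 2.94 without NC 1. A diet left with 1 library is assumed to vary like the other. Of the other values of named genes under alternatives, 222 diet effects and 113 interactions kept direction and call, and 87 and 74 kept direction alone.

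No label says that a replicate number marks a shared mouse, batch or genotype. The deviations of same-numbered libraries had a correlation of −0.0291 over 5891 genes (2 pairs). A value over all genes cannot show a factor that moves few of them, so a shared genotype was not tested. Scarb1 was higher in the first library of both diets. With the replicate block 64 genes were called, 49 of them among the 56, and of the genes named Ccdc28b and Ypel3 were not called. HFpEF 1, with 156 cells, had the fewest arteriolar ECs and enters every diet effect. How far this limits their precision was not tested.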
